A study of Mus musculus with 60 samples.

Results

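The livers of mice given the highest dose of benzo(ghi)perylene (BghiP) were compared with those of mice given vehicle, and the members were all liver arrays titled D3 and all those titled D0. There were 5 D3 and 5 D0 livers, 10 of the 60 arrays of the series, which also holds lung and forestomach and the doses D1 and D2. The animals were male MutaTMMouse, a transgenic strain that carries a bacterial reporter gene for mutation tests, about 10 weeks old and housed singly. Each mouse was gavaged daily for 28 days. D0 mice (1 to 5) received olive oil, and D3 mice (16 to 20) received BghiP in olive oil at 25 mg/kg-bw/day. D1 mice (6 to 10) received 6.25 and D2 mice (11 to 15) 12.5 mg/kg-bw/day. All were killed 72 hours after the final dose, and RNA was taken from a random section of liver. An array value is the log2 ratio of liver RNA (Cy5) to a universal mouse reference RNA made from 11 cell lines (Cy3), so values are set against that reference and not against a vehicle liver. The comparison asked which liver transcripts differed between exposed and vehicle mice.

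BghiP is a polycyclic aromatic hydrocarbon. Planar hydrocarbons of this class can bind the aryl hydrocarbon receptor (AhR), a transcription factor that moves to the nucleus, pairs with Arnt and binds a short DNA element in front of genes such as Cyp1a1 and Cyp1a2. Cyp1a enzymes oxidize the hydrocarbons, mainly in liver, and some of the products react with DNA. Damaged DNA is sensed by the kinases Atm and Atr, which stabilize p53 and so raise genes such as Cdkn1a and Mdm2. The liver consists largely of hepatocytes, with Kupffer cells, sinusoidal endothelial cells and stellate cells between them. In whole liver, fewer cells of a type and less RNA per cell cannot be told apart.

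The 20 liver arrays lay on 3 slides. Slide 1 held D0 mouse 1 and D3 mice 16 and 17, slide 2 held D0 mice 3 and 4 and D3 mouse 18, and slide 3 held D0 mice 2 and 5 and D3 mice 19 and 20. Slide was a term of the fit. A dose always sat in the same column of a slide, and column and dose cannot be told apart. The share of probes well above background in Cy5 was 36.3% to 46.2% (median 43.9%) in D0 and 39.0% to 48.3% (median 43.5%) in D3. Within slides D3 exceeded D0 by 1.74, 3.21 and 1.90 percentage points, and the part of this in the results was not tested. Each array correlated with the mean of the others of its group at 0.978 to 0.991 over the probes tested in liver. All 12 hepatocyte markers, among them Alb and Apoa1, were well above background on all 20 liver arrays, with mean log2 ratios from 6.01 to 8.93.

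Calls needed a Benjamini-Hochberg adjusted p no higher than 0.05 together with a 1.5-fold difference (0.585 on the log2 scale). At D3, 24 of the 25893 probes tested in liver were called (0.0927% of probes), 4 higher (0.0154%) and 20 lower (0.0772%) than in D0. With no minimum change, 79 passed the adjusted p (0.305%), 25 higher and 54 lower. The lowest adjusted p was 0.0376, and those of the called probes lay between 0.0376 and 0.0485. At an unadjusted p under 0.05, 2095 probes were higher (8.09%) and 2547 lower (9.84%), 4642 in all against 1295 expected with no effect. Called genes with a symbol were the higher Cspp1 and Grk3 and the lower Shld2, Zfp967, F830016B08Rik, Arglu1, Dido1, Dmtf1, Luc7l3, Ddx5, Inpp5f and Nsa2.

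The calls depended on the slide term and on single mice. Without the slide term, and with the D0 and D3 arrays alone, 0 probes were called by limma (3142 and 3985 at an unadjusted p under 0.05). None was called when D0 mouse 2, 3 or 5 or D3 mouse 16, 17, 19 or 20 was left out (3666 to 4169 at an unadjusted p under 0.05), 5 were called without D3 mouse 18, 45 without D0 mouse 4 and 148 without D0 mouse 1. The scanner program's background-subtracted signals gave 12 calls, 5 higher and 7 lower, and normexp background correction gave 26, 7 higher and 19 lower.

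**Figure D1:**
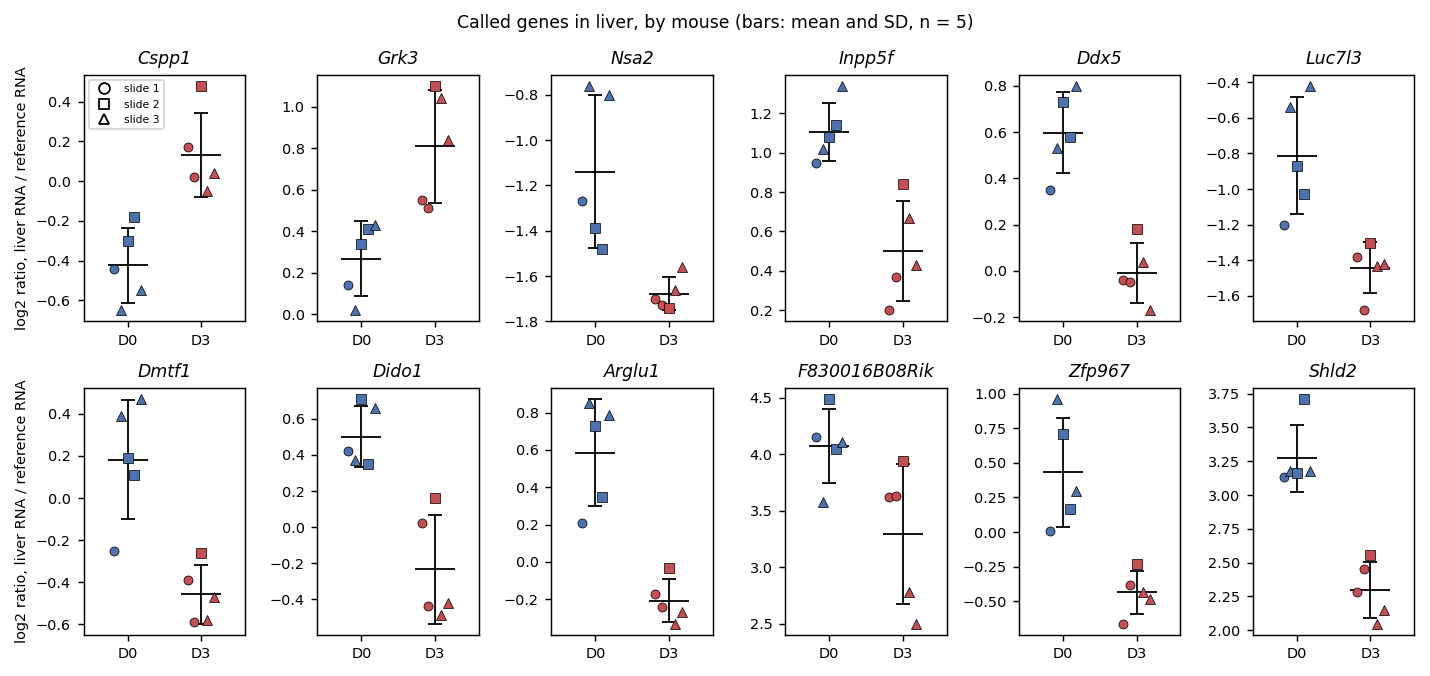
Log2 ratio of liver RNA to reference RNA (y axis) for the 12 called genes that carry a symbol, with 1 point per mouse in D0 and D3; marker shape shows the slide, and bars show mean and SD over 5 mice. In 11 of the 12 the D0 and D3 points do not overlap, and in F830016B08Rik they do.

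To show where the letters of the AhR core match, the 250 bases upstream of the start are printed for the called genes whose window holds them. The window of Cyp1a1, the classical AhR target, is printed first for comparison. The sequences are those of RefSeq on GRCm38.p6, read 5′ to 3′ on the strand of the gene, with the core of the AhR element, GCGTG, in capitals. Where the core lies on the opposite strand, the capitals read CACGC. The window of Cyp1a1 is chr9:57697363-57697612 on the plus strand, and its match to these letters starts at -54 relative to the start site. Whether the AhR binds at this match was not tested.
Cyp1a1: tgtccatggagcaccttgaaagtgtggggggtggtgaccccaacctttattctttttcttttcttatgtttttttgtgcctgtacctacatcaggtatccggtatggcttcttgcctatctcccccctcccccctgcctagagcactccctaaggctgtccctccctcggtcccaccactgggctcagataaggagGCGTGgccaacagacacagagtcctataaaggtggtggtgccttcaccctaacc
Shld2 (chr14:34310518-34310767, minus strand) has cores at -133 and -56.
Shld2: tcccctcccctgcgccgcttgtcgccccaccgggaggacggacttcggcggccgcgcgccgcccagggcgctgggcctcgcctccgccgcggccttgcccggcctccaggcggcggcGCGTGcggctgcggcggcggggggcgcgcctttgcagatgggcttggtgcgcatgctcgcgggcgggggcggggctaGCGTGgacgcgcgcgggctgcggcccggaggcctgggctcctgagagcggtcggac
Luc7l3 (chr11:94321964-94322213, minus strand) has a core at -23.
Luc7l3: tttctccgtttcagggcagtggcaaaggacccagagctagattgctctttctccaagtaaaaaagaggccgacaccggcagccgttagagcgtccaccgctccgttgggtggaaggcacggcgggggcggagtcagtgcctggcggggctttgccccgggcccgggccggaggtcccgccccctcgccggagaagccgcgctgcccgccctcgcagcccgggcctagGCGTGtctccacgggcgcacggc
Inpp5f (chr7:128611115-128611364, plus strand) has a core at -113 on the opposite strand.
Inpp5f: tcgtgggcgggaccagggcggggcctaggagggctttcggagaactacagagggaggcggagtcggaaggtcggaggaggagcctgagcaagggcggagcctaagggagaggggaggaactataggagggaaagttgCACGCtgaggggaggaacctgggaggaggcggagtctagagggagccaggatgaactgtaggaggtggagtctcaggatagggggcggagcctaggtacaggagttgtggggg
Nsa2 (chr13:97137927-97138176, minus strand) has a core at -234 on the opposite strand.
Nsa2: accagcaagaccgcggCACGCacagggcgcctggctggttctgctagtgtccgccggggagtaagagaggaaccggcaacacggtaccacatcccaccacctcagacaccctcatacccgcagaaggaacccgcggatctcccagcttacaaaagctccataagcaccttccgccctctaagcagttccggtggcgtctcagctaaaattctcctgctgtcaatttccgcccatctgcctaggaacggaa

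Searched on both strands, the core was in 4 of the 8 windows matched among the 12 called genes (50%). It was in 5 of 15 matched genes past the adjusted p and higher (33.3%), and in 10 of 24 lower (41.7%). Of 10271 windows of genes tested in liver, 43.2% held it, as did 28.2% of all 27025 windows. The windows of Ddx5, Dido1, Dmtf1 and Zfp967 did not contain these letters. Among the AhR genes checked besides Cyp1a1, those of Cyp1a2 and Nqo1 did not either, whereas those of Ahrr and Tiparp did. A core in the window is a match of letters and not a measured binding site.

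Cspp1 and Grk3 were the called genes that rose. Cspp1 (NM_026493) encodes a protein of centrosomes, spindle poles and cilia. Its log2 ratios were -0.44, -0.65, -0.30, -0.18 and -0.55 in D0 mice 1 to 5, and 0.17, 0.02, 0.48, -0.05 and 0.04 in D3 mice 16 to 20. All D3 mice lay above all D0 mice, and the change was 0.61 ± 0.10 (SE; adjusted p 0.0376), or 1.53-fold. Grk3 (NM_177078) encodes a kinase that desensitizes adrenergic and other G protein-coupled receptors. Grk3 measured 0.14, 0.02, 0.34, 0.41 and 0.43 in D0 and 0.55, 0.51, 1.10, 1.04 and 0.84 in D3. It rose by 0.61 ± 0.11 (SE; adjusted p 0.0376), again without overlap.

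The largest fall among called probes was that of Shld2 (NM_029389), a subunit of shieldin, which protects broken DNA ends from trimming. Its log2 ratios in D0 were 3.13, 3.18, 3.16, 3.71 and 3.18, and in D3 they were 2.28, 2.45, 2.56, 2.05 and 2.15. The groups were 0.57 apart at their nearest mice, and the change was -0.94 ± 0.16 (SE; adjusted p 0.0376), a 1.92-fold decrease. Dmtf1 (NM_001110327), a transcription factor that acts upstream of p53 through Arf, fell by 0.64 ± 0.13 on the log2 scale (adjusted p 0.0451). Its D0 values ran from -0.25 to 0.47 and its D3 values from -0.59 to -0.26, so that the groups nearly met, and they overlapped by a little once slide effects were taken out.

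Atr (NM_019864), the kinase that senses stalled replication and single-stranded DNA, rose by 0.47 ± 0.10 (SE; adjusted p 0.0455). Its values were -1.31, -1.50, -1.04, -0.87 and -1.24 in D0 and -0.88, -1.08, -0.52, -0.73 and -0.73 in D3, and they overlapped until the slide effects were taken out. Fancm (NM_178912), a helicase at stalled forks, rose by 0.38 ± 0.08 (adjusted p 0.0382). The related kinases Atm (0.29 ± 0.08, adjusted p 0.0775) and Prkdc (0.31 ± 0.08, adjusted p 0.0717) did not pass. Mdm4, a partner of Mdm2 that restrains p53, had a change of -0.59 ± 0.15 (adjusted p 0.0665). Its D0 values were 0.42, 0.45, 0.79, 0.61 and 0.90, and its D3 values -0.20, -0.26, 0.40, -0.01 and 0.09.

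Arglu1, Luc7l3, Ddx5 and Nsa2 were also called lower. Arglu1 (NM_176849), an arginine-rich protein that modulates splicing, measured 0.21, 0.85, 0.73, 0.35 and 0.79 in D0 and -0.17, -0.24, -0.03, -0.33 and -0.27 in D3 at the called probe. This probe of Arglu1 fell by 0.77 ± 0.14 (SE; adjusted p 0.0376). Luc7l3 (NM_026313), which joins the U1 particle in choosing splice sites, had D0 values of -1.20, -0.54, -0.87, -1.03 and -0.42 and D3 values of -1.38, -1.68, -1.30, -1.43 and -1.42. It fell by 0.63 ± 0.13 on the log2 scale (SE; adjusted p 0.0471), with all D3 mice below all D0 mice. Ddx5 (NM_007840), an RNA helicase, fell by 0.61 ± 0.11 (adjusted p 0.0376) at its called probe, from 0.35, 0.53, 0.73, 0.58 and 0.80 in D0 to -0.04, -0.05, 0.18, 0.04 and -0.17 in D3. Nsa2 (NM_021552), needed to make the large ribosomal subunit, fell by 0.59 ± 0.12 (adjusted p 0.0443) from between -1.48 and -0.76 in D0 to between -1.74 and -1.56 in D3. Past the adjusted p under 1.5-fold were lower Cpsf6 (-0.37 ± 0.07), which helps cut transcripts at poly(A) sites, and higher Hnrnpk (0.40 ± 0.08), Ints4 (0.30 ± 0.06) and Rcl1 (0.54 ± 0.11), the last a factor of ribosomal RNA processing.

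The remaining called genes with symbols had other roles. F830016B08Rik (NM_001101475), listed among interferon-stimulated genes, fell by 0.81 ± 0.16 on the log2 scale (adjusted p 0.0382). Its D0 values were 4.15, 3.58, 4.49, 4.05 and 4.11 and its D3 values 3.62, 3.63, 3.94, 2.78 and 2.50, with overlap in the measured values and none after slide effects were taken out. Dido1 (NM_011805), a chromatin-associated protein, measured 0.42, 0.37, 0.71, 0.35 and 0.66 in D0 and 0.02, -0.44, 0.16, -0.49 and -0.42 in D3, a fall of 0.74 ± 0.13 (adjusted p 0.0376). Zfp967 (NM_001177406), a zinc finger protein, fell by 0.83 ± 0.17 (adjusted p 0.0485; -1.68 and not past with processed signals), from between 0.01 and 0.96 to between -0.66 and -0.23. Inpp5f (NM_178641), a phosphatase of membrane inositol lipids, fell by 0.59 ± 0.11 (adjusted p 0.0382), from between 0.95 and 1.34 to between 0.20 and 0.84. In both Zfp967 and Inpp5f the groups did not overlap.

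Below 1.5-fold, genes of signalling, trafficking and chromatin also passed the adjusted p. Tyk2 (NM_018793), the Janus kinase of interferon and interleukin-12 receptors, rose by 0.51 ± 0.10 (adjusted p 0.0376). It measured -0.31, -0.27, -0.32, -0.43 and -0.16 in D0 and 0.36, 0.09, 0.10, 0.21 and 0.42 in D3, all D3 mice being higher. Dgkq, a diacylglycerol kinase, rose by 0.47 ± 0.09, whereas Prkce, a protein kinase C that diacylglycerol activates, fell by 0.46 ± 0.09. Trak1 (0.51 ± 0.10), which tethers mitochondria to motors, Pcgf1 (0.49 ± 0.10) of a Polycomb complex, the nuclear envelope protein Nemp1 (0.49 ± 0.09), Txlng (0.49 ± 0.08), Fam76b (0.49 ± 0.10) and the Golgi tether Gcc2 (0.42 ± 0.08) rose as well. Among those that fell were Mgat2 (-0.55 ± 0.11), which branches N-glycans in the Golgi, the Golgi protein Trip11 (-0.50 ± 0.10), the histone methyltransferase Kmt2d (-0.50 ± 0.10, and -1.67 with processed signals, where it did not pass) and the zinc finger genes Zfp322a (-0.56 ± 0.11) and Zbtb11 (-0.54 ± 0.10). Of genes for microtubules, Tbce (0.33 ± 0.07), which folds tubulin, rose, and Katnal1 (-0.48 ± 0.09), a severing enzyme, fell. Lin9 (0.42 ± 0.07), of the complex that controls cell cycle genes, and E130311K13Rik (0.38 ± 0.07) rose. Sdc4 (-0.46 ± 0.09), a cell surface proteoglycan, the ubiquitin ligase Wwp1 (-0.43 ± 0.09), Tbl1x (-0.40 ± 0.08) of a corepressor complex, and Gm4349 (-0.44 ± 0.09) fell.

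Cab39l (-0.53 ± 0.09), a partner of the kinase Lkb1, Gm14326 (-0.53 ± 0.11), Ivns1abp (-0.50 ± 0.09) and Rnpc3 (-0.50 ± 0.09), a protein of the minor spliceosome, fell too. Kcnq1ot1 (NR_001461), an imprinted noncoding RNA that silences neighbouring genes in cis, fell by 0.53 ± 0.10 (adjusted p 0.0376), from -0.39, -0.07, -0.05, 0.08 and 0.04 in D0 to a narrow range of -0.68 to -0.56 in D3.

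Of all 25893 probes, 707 (2.73%) had D0 and D3 values that did not overlap as measured, and 1667 (6.44%) after the fitted slide effects were taken out. Among the 24 called probes these counts were 20 and 22. The overlapping ones as measured were F830016B08Rik, XR_031573, XM_001478088 and a probe of chr17:39980973-39981876, and those that overlapped without slide effects were Dmtf1 and XM_001478088.

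Some of the genes above were covered by more than 1 tested probe, and the probes did not always move together. Of 50 genes past the adjusted p, 20 had other tested probes, 33 in all, of which 21 had a change in the same direction and 12 in the opposite direction. Differences between probes of a gene were not tested, and the probes' positions within the transcripts were not analysed here. For Ddx5 the called probe fell by 0.61, while the other probes had changes of 0.26 ± 0.14 (adjusted p 0.337) and 0.52 ± 0.13 (adjusted p 0.0665). The last of these measured -1.32, -1.77, -0.92, -0.99 and -1.35 in D0 and -0.91, -1.01, -0.68, -0.70 and -0.72 in D3. The groups overlapped as measured at this probe and not once slide effects were taken out. Its change was above 0, where that of the called Ddx5 probe was below 0.

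Dido1 showed the same arrangement. Beside the called fall of 0.74, a second probe with the same accession (NM_011805) had a change of 0.51 ± 0.11 (adjusted p 0.0527). Its D0 values were -1.03, -1.13, -1.03, -1.10 and -0.88, and its D3 values -0.47, -0.68, -0.54, -0.58 and -0.49, all D3 mice being higher. The brightest Dido1 probe (NM_175551) had a change of 0.16 ± 0.20 (adjusted p 0.719). For Arglu1 the brighter probe had 0.12 ± 0.09 (adjusted p 0.490) against the called fall of 0.77, and for Rnpc3 the others had 0.35 ± 0.09 (adjusted p 0.0762) and 0.02 ± 0.11 against a fall of 0.50. The brighter Shld2 probe had -0.11 ± 0.11 (adjusted p 0.635), so that the large fall of Shld2 rested on 1 of its 2 tested probes. Of the 3 tested Cab39l probes, the one past the adjusted p had -0.53, the brightest -0.00 ± 0.06 (adjusted p 0.996) and the third -0.31 ± 0.07 (adjusted p 0.0606). Beside the rises of Trak1 and Nemp1, their other probes had -0.06 ± 0.09 (adjusted p 0.765) and -0.14 ± 0.09 (adjusted p 0.427). The brighter probes of Ivns1abp and Kmt2d had -0.08 ± 0.13 (adjusted p 0.767) and -0.13 ± 0.09 (adjusted p 0.470), so that these falls too rested on 1 of 2 probes. The other 5 probes of Nsa2 had changes from -0.20 to 0.09, none past the adjusted p. Zfp967 was called at 1 of its 3 probes, with -0.44 ± 0.11 (adjusted p 0.0708) at a brighter probe and -0.10 ± 0.14 (adjusted p 0.744) at a dimmer one. Pdlim5, a cytoskeletal adaptor, passed at 2 of its 3 probes, with -0.42 ± 0.08 and -0.39 ± 0.08.

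**Figure D2:**
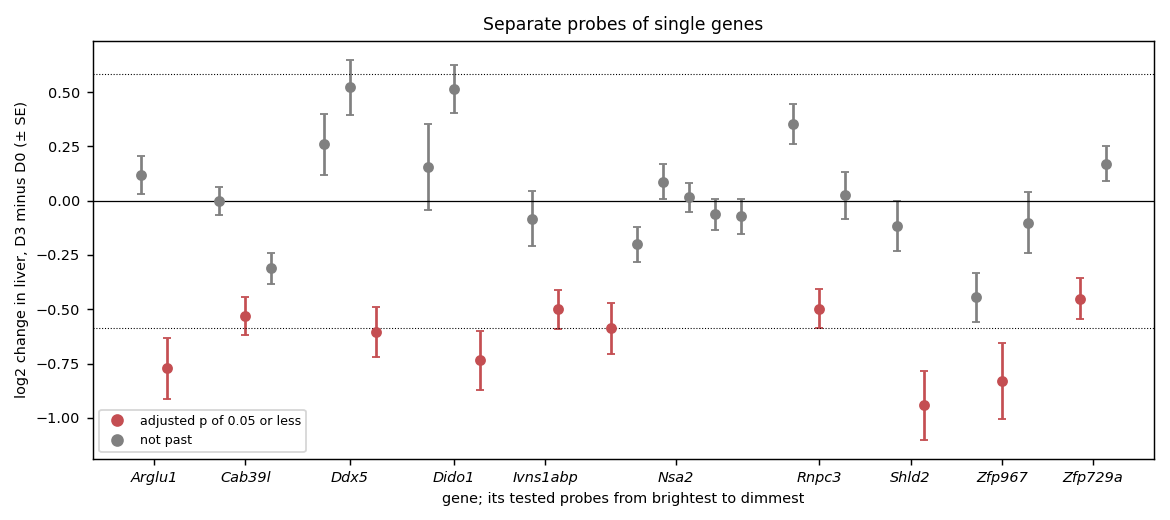
Change at D3 against D0 (log2, with SE) of every tested probe of 10 genes that have at least 1 probe past the adjusted p; red points are past it, and dotted lines mark 1.5-fold. Ddx5, Dido1, Arglu1, Nsa2, Rnpc3 and Zfp729a each have a probe that fell and at least 1 other with a change above 0.

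Probes without a gene symbol made up 12 of the 24 calls. The higher ones were ENSMUST00000000544 (0.60 ± 0.09) and ENSMUST00000062202 (0.59 ± 0.09). ENSMUST00000000544 had the most separate groups of these, from -0.18 to -0.05 in D0 and from 0.39 to 0.53 in D3. The lower ones with accessions were XR_031573 (-0.75 ± 0.14), ENSMUST00000120540 (-0.74 ± 0.12), XM_001478088 (-0.69 ± 0.14), XM_001480269 (-0.65 ± 0.13), AK039069 (-0.65 ± 0.13) and XR_032177 (-0.60 ± 0.11). ENSMUST00000120540 lay at 5.03, 5.02, 5.52, 5.30 and 4.99 in D0 and at 4.46, 4.86, 4.53, 4.20 and 4.05 in D3. With the scanner program's processed signals, only 2 of all 24 called probes were past the adjusted p, and ENSMUST00000120540 had a change of -0.20 with the highest of the 24 adjusted p (0.427).

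The other lower probes were designed to intervals of the mm9 genome, named here by their coordinates and strand. Both called probes of chr17:39980973-39981876 (reverse strand) fell by 0.74 ± 0.15 and 0.71 ± 0.14. After these values had been seen, all tested probes on intervals overlapping that one, within chr17:39960567-39992817, were collected. The 14 probes include the 2 called ones that set the region, and only these 2 passed the adjusted p. All 14 had changes below 0, from -0.74 to -0.31 with a median of -0.64, where 2790 of all 4438 interval probes were below 0. Of the 14 probes 10 were on the reverse and 4 on the forward strand, some may share sequence, and 1 of the calls overlapped between groups as measured. The probe of chr19:5798135-5800557 (reverse strand) fell by 0.64 ± 0.13. Within chr19:5771425-5848475, all 14 tested probes, the called one included, had changes below 0, from -0.65 to -0.03 with a median of -0.26. Of them 10 were on the forward and 4 on the reverse strand. The other 2 probes of chr19:5798135-5800557 had -0.65 each (adjusted p 0.0575 and 0.0787). At chr8:27129927-27137444 (reverse strand) the called probe fell by 0.72 ± 0.14, whereas the 4 other tested probes inside that interval had changes from 0.20 to 0.45.

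By probe type, 50 of the 16477 tested probes with a RefSeq messenger RNA accession passed the adjusted p, 19 higher and 31 lower (0.303%), near the 0.305% over all probes. Of 4438 interval probes 3 were higher and 9 lower (0.27%). The share past the adjusted p was 0.165% of RefSeq model probes and 0.265% of 1507 Ensembl probes. It was 0.662% of 302 RefSeq noncoding RNA probes and 0.933% of GenBank probes. The median change was 0.03 over the messenger RNA probes, -0.05 over interval probes, -0.05 over 2419 RefSeq model probes and -0.07 over 750 GenBank probes.

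D1 and D2 were compared with the same D0 mice, so these contrasts share their controls with D3 and are not independent of it. Neither gave a call by limma (0 of 25893 at each), with 1097 and 1768 probes at an unadjusted p under 0.05 and lowest adjusted p of 0.486 and 0.709. The median size of the change over the 24 called probes was 0.15 at D1, 0.36 at D2 and 0.65 at D3. Cspp1 had 0.21, 0.34 and 0.61 at D1, D2 and D3. Shld2 had 0.00, -0.38 and -0.94, Arglu1 had -0.15, -0.42 and -0.77, and F830016B08Rik had -0.18, -0.54 and -0.81. As the probes were picked at D3, these values are a description.

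**Figure D3:**
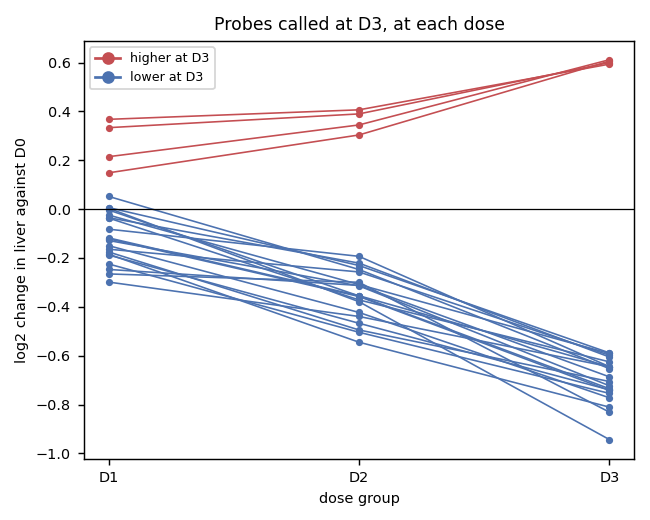
Change against D0 (log2, y axis) of the 24 called probes at D1, D2 and D3 (x axis, dose group), 1 line per probe. The 3 doses share the D0 mice, and the probes were chosen at D3, where the median size was 0.65 against 0.36 at D2 and 0.15 at D1.

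Genes that report on the AhR did not pass the test. Cyp1a2 (NM_009993), which hepatocytes express without exposure, lay at 6.30, 6.00, 6.34, 6.61 and 5.85 in D0 and at 6.30, 6.06, 6.31, 5.74 and 5.73 in D3, a change of -0.17 ± 0.09 (adjusted p 0.347). Cyp1a1 and Ahrr, the AhR repressor, were well above background on 0 of the 20 liver arrays, and Cyp1b1 on 3, so that they were not tested. Tiparp, an AhR-induced ADP-ribosyltransferase, had 0.09 ± 0.11 (adjusted p 0.701) and the quinone reductase Nqo1 had -0.09 ± 0.14 (adjusted p 0.789). Of the 10 AhR target genes tested, 6 had changes above 0, 0 passed the adjusted p and the median was 0.11. Over the 12886 genes tested, by the brightest probe of each, the median was 0.03, 57.5% were above 0, 11.0% were higher at an unadjusted p under 0.05 and 7.22% lower.

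The p53 targets were likewise spread around 0. Cdkn1a (NM_007669), the p21 inhibitor of the cell cycle, had a change of -0.26 ± 0.13 (adjusted p 0.276), Ccng1 of 0.17 ± 0.09 (adjusted p 0.347) and Mdm2 of -0.08 ± 0.09 (adjusted p 0.654). Within slides the Cdkn1a differences were 0.02, -0.79 and -0.12, and its change ran from -0.34 to -0.11 over the alternatives. Of 23 targets tested, 12 were above 0 and 0 passed, with a median of 0.01. Among 7 regulators of p53 Atr alone passed, and 4 were above 0. Of 19 genes of double-strand break repair, each read at its brightest probe, 13 were above 0 and 0 passed the adjusted p; Shld2, a member, entered at its brighter probe (-0.11) and not at the called one.

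In all, 56 lists of pathway genes and cell type markers were described by counts and medians, with no set test. Each gene was read at its brightest probe, where 36 of 12886 genes passed the adjusted p (0.279%). The lists held 10 of these among 1597 tested genes (0.626%), spread over 8 lists, and as the lists were drawn up with earlier results of these data known, nothing is read from that share. The splicing list held Luc7l3, which fell, with 31 of 46 genes above 0 and a median of 0.10. At an unadjusted p under 0.05, 15 splicing genes were higher (11% of all genes were) and 6 lower (7.22% of all genes), with values on both sides: Srsf5 had 0.89 ± 0.23 (adjusted p 0.0742), Ccnl2 0.47 ± 0.10 (adjusted p 0.0538), Son 0.34 ± 0.08 (adjusted p 0.0618) and Nktr -0.69 ± 0.15 (adjusted p 0.0512). Nktr, a cyclophilin with an arginine and serine rich tail, lay between -0.47 and 0.16 in D0 and between -1.17 and -0.53 in D3. The centrosome and cilium list held Cspp1, with 27 of 36 genes above 0 and a median of 0.09 (0.07 to 0.23 over the alternatives). Among adrenergic receptors and their desensitization Grk3 rose, 9 of 16 genes were above 0, and Adrb3 had 0.85 ± 0.23 (adjusted p 0.0831).

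Cytosolic ribosomal protein genes lay below 0 in 77 of 80, with a median of -0.15 (-0.18 to -0.05 over the alternatives), against 0.03 over all genes. None passed the adjusted p, whereas 34 were lower at an unadjusted p under 0.05 (42.5%, against 7.22% of all genes). Of all 12886 genes, 5473 lay below 0. Rps14 had -0.38 ± 0.10 (adjusted p 0.0854), from between -0.69 and -0.42 in D0 to between -1.0 and -0.70 in D3. The mean over the list, without slide effects and set against the D0 mean, ran from -0.09 to 0.12 in D0 and from -0.22 to -0.09 in D3, with a slight overlap. Within slides the medians were -0.10, -0.10 and -0.16.

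The acute-phase, interferon and heat shock lists had medians below 0, but their means per mouse, without slide effects, overlapped between groups. Those means ran from -0.33 to 0.32 in D0 and from -0.40 to 0.06 in D3 for acute-phase genes. They ran from -0.17 to 0.20 and from -0.31 to -0.04 for interferon genes, and from -0.28 to 0.56 and from -0.37 to -0.07 for heat shock genes. The highest D0 mean of each list was that of mouse 2. Of 23 acute-phase genes, which the liver secretes in inflammation, 21 were below 0 (median -0.22), 0 passed, and Saa4 had -0.46 ± 0.13 (adjusted p 0.0886). Their medians within slides were -0.01, -0.15 and -0.35. Of 31 interferon-stimulated genes 25 were below 0 (median -0.17), with F830016B08Rik past the test and Ifit1, an antiviral RNA-binding protein, at -0.56 ± 0.17 (adjusted p 0.110). Heat shock genes had a median of -0.16 (17 of 23 below 0), with within-slide medians of 0.11, -0.22 and -0.38, so that the slides disagreed in direction, and the median ran from -0.24 to -0.03 over the alternatives.

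Markers of cell types did not pass the adjusted p in any of 14 lists. All 12 Kupffer cell and macrophage markers had changes above 0, with a median of 0.26. Lyz2, the lysozyme of macrophages, had 0.43 ± 0.12 (adjusted p 0.0854), from -0.44 to -0.10 in D0 and from -0.04 to 0.54 in D3, and Timd4 had 0.45 ± 0.14 (adjusted p 0.116). The mean over the Kupffer markers overlapped, from -0.46 to 0.31 in D0 and from 0.07 to 0.60 in D3, and the within-slide medians were -0.17, 0.18 and 0.59, below 0 on slide 1. Antigen presentation genes, which macrophages also express, had 12 of 15 above 0 (median 0.22, within slides -0.01, 0.22 and 0.25), with Cd74 at 0.65 ± 0.23 (adjusted p 0.162). Hepatocyte markers were below 0 in 11 of 12 (median -0.12), and sinusoidal endothelial markers were above 0 in 6 of 12 (median 0.02). All 5 red cell markers tested were below 0 (median -0.21), with Hba-a1 of haemoglobin at -0.24 ± 0.10 (adjusted p 0.206) and within-slide medians of -0.22, -0.43 and -0.12. All 4 mesothelial markers tested were also below 0 (median -0.17), with Wt1 at -0.31 ± 0.10 (adjusted p 0.118) and within-slide medians of -0.29, -0.13 and -0.05. All 3 tested markers of gallbladder and stomach epithelium, Gkn3, Muc5ac and Tff2, were above 0 (median 0.12, lowest adjusted p 0.527), with within-slide medians of 0.07, 0.335 and 0.10. Their mean without slide effects overlapped between D0 (-0.22 to 0.29) and D3 (0.06 to 0.25). Of pancreatic acinar markers 2 of 3 were above 0 (median 0.10, within slides -0.03, 0.09 and 0.11, and 0.00 without D0 mouse 3), with means of -0.22 to 0.15 in D0 and 0.09 to 0.20 in D3, and of fat cell markers 2 of 4 were (median 0.07). The part of any shift in cell types in the other results was not tested.

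**Figure D4:**
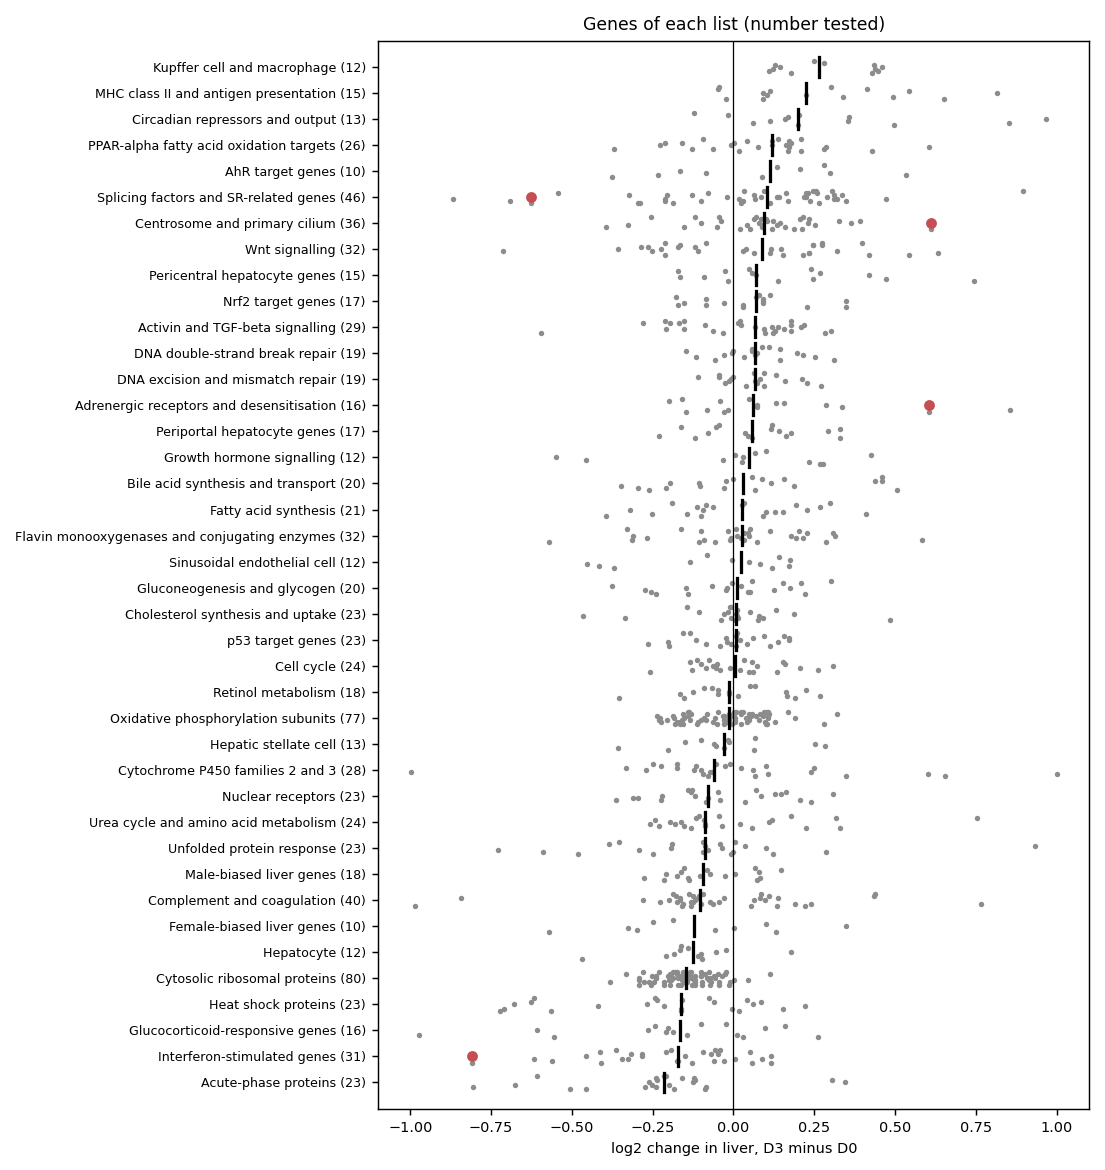
Change at D3 against D0 (log2) of each gene in the lists with at least 10 tested genes, other than those of zinc finger and predicted genes, 1 point per gene, with the list's median marked; red points passed the adjusted p. Ribosomal protein genes lie almost all below 0, Kupffer cell markers all above it, and AhR and p53 targets on both sides.

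Whether the changes at D3 differed from those in lung and forestomach of the same mice was tested by interaction contrasts. Of the 24 called probes, 13 had the same direction in lung, where 56.1% of all tested probes did, and 14 in forestomach, where 52.7% did. The median size over the called probes was 0.08 in lung and 0.15 in forestomach, against 0.65 in liver, where they were chosen. ENSMUST00000120540 was the only probe whose change differed between liver and lung (difference -0.83 ± 0.15, adjusted p 0.0191), being -0.74 in liver and 0.09 in lung. Cab39l differed at 1 of its 3 probes between liver and forestomach (-0.85 ± 0.16, adjusted p 0.0303), at -0.53 and 0.32, as did ENSMUST00000147466 (-0.86 ± 0.15, adjusted p 0.0286) and the interval chr2:48818825-48822612 (-0.74 ± 0.15, adjusted p 0.049). With mouse as a replicate block, ENSMUST00000147466 alone remained (adjusted p 0.030), whereas ENSMUST00000120540 had 0.255 and Cab39l and the chr2 interval had 0.188.

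**Figure D5:**
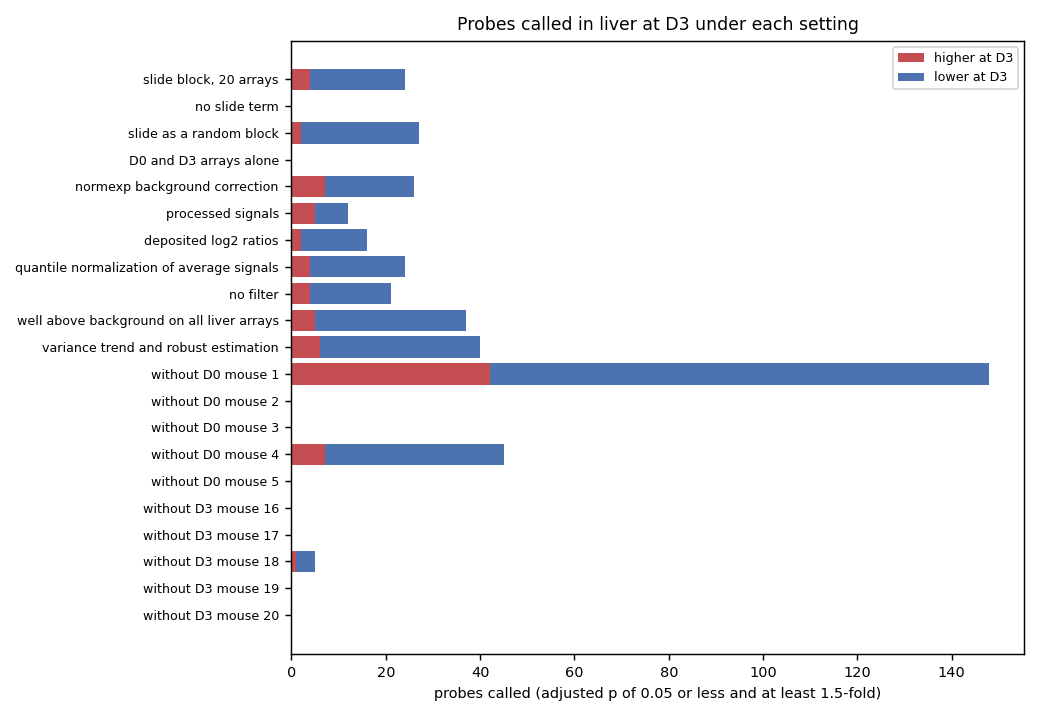
Number of probes called at D3 against D0 in liver (x axis) in the fit as described and under each alternative (y axis), 24 in the fit as described. The count was 0 without the slide term, with the D0 and D3 arrays alone, and without any of 7 single mice, and 148 without D0 mouse 1.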

How the data were processed

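Liver, lung and forestomach RNA of 20 mice was measured, 1 tissue of 1 mouse per array, and groups and mouse numbers came from the sample labels. The deposited scanner files give, per the file headers, median signal intensity, processed signal intensity and flags from Feature Extraction 10.7.3.1 on a design of build mm9. The deposited series matrix holds log2 ratios, which the authors had LOWESS-normalized from median signals with no background subtracted.

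From the scanner files, control spots (3671 of 62976) and spots flagged as non-uniform (0.0361% of values) were left out, log2 ratios of median signals were normalized within arrays by loess, and spots of a probe were averaged (55681 probes). A probe entered the test if its Cy5 signal was well above background on 5 or more of the 20 liver arrays. A linear model of dose and slide over the 20 liver arrays (limma 3.58.1, R 4.3.3, lmFit and eBayes, two-sided) gave D3 minus D0, with Benjamini-Hochberg adjustment over 25893 probes. Interactions with tissue used all 60 arrays. The scripts were tested on simulated data. The residual shuffling of the study's methods was not run. The number of arrays limits precision.

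Symbols came from RefSeq accessions (26413 probes, 47.4%) matched to RefSeq's GRCm38.p6 annotation, which gave only names and promoter windows. Interval probes were not named because no mm9 annotation was used here. Named genes were all called probes, the 10 largest rises and falls past the adjusted p under 1.5-fold with all D3 values on 1 side of the D0 mean, 9 AhR and p53 checks, members of the lists past the adjusted p, and up to 3 members of each list. Genes outside this rule (Fancm, Lin9, Tbce, Katnal1, Prkce, Sdc4, Tbl1x, Wwp1, Cpsf6, Hnrnpk, Ints4, Pdlim5, Srsf5, Son) and the overlapping intervals were chosen after their values were seen. The samples, lists and tests were chosen with earlier results of these data known. The alternatives were the slide term absent or random, D0 and D3 alone, other background and normalization settings, other filters, a variance trend, and leaving out each mouse.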

Additional observations from a re-analysis of the deposited data

Results flagged for a closer look

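In 11 of 218 sets of 5 mice, a single mouse stood apart from the other 4 by Dixon's test, where chance gives about 10.9. Among named genes, D0 mouse 4 had Shld2 at 3.71, with the others at 3.13 to 3.18. D0 mouse 1 had Trip11 at 1.11, against 1.31 to 1.35, and D3 mouse 19 had Nqo1 at -1.19, against -1.90 to -1.71. The other 8 were means over lists, given as measured log2 ratios minus the D0 mean. D3 mouse 17 stood apart in circadian activators (0.14, others -0.36 to -0.24), double-strand break repair (-0.03, others 0.07 to 0.09) and sinusoidal endothelial markers (0.14, others -0.12 to -0.06). D0 mouse 1 stood apart in female-biased liver genes (0.46, others -0.19 to -0.04) and in gallbladder and stomach epithelium (0.30, others -0.15 to -0.03), in which D3 mouse 18 also did (0.31, others 0.06 to 0.12). D0 mouse 2 stood apart in gluconeogenesis and glycogen genes (-0.59, others 0.08 to 0.17), and D3 mouse 16 in interferon-stimulated genes (-0.08, others -0.27 to -0.24).

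By the interaction test, ENSMUST00000120540 differed between liver and lung (-0.831) and Cab39l, at 1 of its 3 probes, between liver and forestomach (-0.849). Neither passed with mouse as a replicate block (adjusted p 0.255 and 0.188, limma) or without the slide term (lowest adjusted p over all probes 0.666 for lung and 0.904 for forestomach).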

How the results depend on the processing

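All 24 called probes kept their direction under each of the 20 alternatives (23 of them were tested under the filter on all arrays). The count of calls (24; 4 higher, 20 lower) was 0 (0 higher, 0 lower) without the slide term and with the D0 and D3 arrays alone, and leaving out 1 mouse gave 0 to 148 (0 to 42 higher, 0 to 106 lower). It was 27 with slide as a random block (2 higher), 26 with normexp (7 higher), 12 with processed signals (7 lower), 16 with the deposited log2 ratios (2 higher), 37 with the filter on all arrays (32 lower) and 40 with a variance trend (34 lower). Only 2 of the 24 remained past the adjusted p with processed signals, and 16 with the deposited ratios; the cause was not tested. With processed signals the size of some changes past the adjusted p moved over 1.5 times: Grk3 to 1.04, Nemp1 to 0.821, Fam76b to 0.755, Dmtf1 to -1.11, Zfp967 to -1.68, Kmt2d to -1.67, Rnpc3 to -0.937, Ivns1abp to -0.8, Gm4349 to -0.8 and ENSMUST00000120540 to -0.195. Among other named genes, Mdm2 turned to 0.0133 with processed signals, and Nqo1 ran from -0.183 to 0.00579 when single mice were left out, above 0 without D0 mouse 1. Of 56 gene list medians, 35 kept their sign in every setting, but 52 moved over 1.5 times in at least 1 setting. Among lists described, cytosolic ribosomal proteins ran from -0.179 to -0.049, circadian repressors from 0.0431 to 0.41, circadian activators from -0.27 to -0.0646, p53 regulators from 0.0702 to 0.343, adrenergic genes from 0.0145 to 0.134, AhR targets from 0.0188 to 0.136, Kupffer markers from 0.216 to 0.42, antigen presentation genes from 0.147 to 0.35, pancreatic acinar markers from 0.00242 to 0.204, mesothelial markers from -0.316 to -0.136, gallbladder and stomach epithelium from 0.0876 to 0.65, centrosome and cilium genes from 0.0686 to 0.229 and Wnt genes from 0.0428 to 0.164, while p53 targets (-0.0309 to 0.0255), sinusoidal endothelial markers (-0.0261 to 0.0962) and fat cell markers (-0.0184 to 0.344) took both signs. The median over all probes moved by under 0.1 in every setting. No paired analysis was possible because D0 and D3 mice carry different numbers, except between tissues: with mouse as a replicate block the differences from lung and forestomach gave 0 and 1 calls, and without the slide term 0 and 0 (879 and 1306 at an unadjusted p under 0.05), against 1 and 3. Signal over background limits what is tested: Cyp1a1 and Ahrr had no liver array well above it.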

Other observations

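Lists not described above had 0 or few genes past the adjusted p, and single members came near it. Among activin and TGF-beta genes, Inhba, the activin A subunit, had a change of -0.60 ± 0.13 (SE; adjusted p 0.0558), with D0 values of -1.03, -0.76, -0.42, -0.37 and -0.53 and D3 values of -1.16, -0.91, -1.43, -1.37 and -1.20. In Wnt signalling 19 of 32 genes were above 0 (median 0.09). The receptor Fzd6 had 0.54 ± 0.13 (adjusted p 0.0638) and the co-receptor Lrp4 0.63 ± 0.15 (adjusted p 0.0665), whereas the transcription factor Tcf7l2 had -0.71 ± 0.19 (adjusted p 0.0834). Lrp4 lay from -0.06 to 0.30 in D0 and from 0.34 to 0.96 in D3, and Fzd6 from -1.02 to -0.58 and from -0.59 to -0.16.

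Srebf1, the regulator of fatty acid synthesis, had -0.40 ± 0.10 (adjusted p 0.0665), from 2.96 to 3.51 in D0 and from 2.64 to 2.99 in D3. Ern1, a sensor of unfolded proteins, had -0.48 ± 0.11 (adjusted p 0.0638), from 1.13 to 1.45 and from 0.69 to 1.01 without overlap. The complement protein C9 had -0.99 ± 0.27 (adjusted p 0.0898), lying from 7.37 to 8.26 in D0 and from 6.70 to 6.96 in D3. Clock genes had 11 of 13 repressors and output genes above 0 (median 0.20) and 5 of 5 activators below 0 (median -0.14), with within-slide medians of the repressors of 0.01, 0.76 and 0.10. The within-slide medians of the activators were 0.16, -0.29 and -0.30, and Nr1d1 had 0.85 ± 0.32 (adjusted p 0.179).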
